A study of Mus musculus with 12 samples.

Results

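The proteasome subunit genes were taken as the protein-coding genes of mouse lung whose symbol begins with Psma, Psmb, Psmc, Psmd or Psme followed by a digit, without Psmb8, Psmb9 and Psmb10. The spelling gave 43 genes of the 18912 protein-coding genes measured, and of the 35599 genes of all types. RNA of lung tissue was sequenced for 12 libraries, 4 in each of 3 groups. The ND-RHL group and the AE-PF group carried the same challenge, bleomycin, a drug that scars the lung, with lipopolysaccharide (LPS), a bacterial product that inflames it, as a model of an acute exacerbation of pulmonary fibrosis. The ND-RHL group was then treated with liposomes loaded with nintedanib, a kinase inhibitor, and dexamethasone, a glucocorticoid, and bearing hyaluronic acid and RGD peptides as ligands. The saline group was the control without the challenge. The labels used here do not give the strain, age, sex or doses, and they do not state that replicates were separate animals, so p-values measure the spread between these libraries, which may be technical in part. The tissue was whole lung and not sorted cells, and a gene's level in such RNA cannot tell a change in the number of cells of a type from a change in RNA per cell.

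The proteasome is the barrel-shaped protease that degrades proteins tagged with ubiquitin. Its 20S core is a stack of rings made of alpha subunits (Psma genes), which gate the entrance, and beta subunits (Psmb genes), some of which carry the active sites. The 19S regulatory particle caps the core. It consists of a base with a ring of ATPases (Psmc genes) that unfold substrates and of a lid (other Psmd genes) that takes the ubiquitin off, and core and cap together form the 26S proteasome. Other caps, the activators of the Psme genes, open the core without ubiquitin. In cells exposed to interferon, Psmb8, Psmb9 and Psmb10 take the places of the standard active subunits to form the immunoproteasome. Lung cells of every type need the 26S proteasome, and its genes are known to be transcribed together.

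By function, the 43 genes comprised 7 alpha ring subunits, 7 beta ring subunits, 6 ATPases, 3 other base subunits, 8 lid subunits, 3 chaperones that assemble the base, 5 activator genes, 2 subunits restricted to single tissues, and 2 genes that share only the spelling. The alpha and beta subunits are the 14 genes of the 20S core, and the ATPases, base and lid subunits are 17 genes of the 19S particle, together 31 subunits of the 26S proteasome. Levels are FPKM (fragments scaled by gene length and by the fragments counted in the library). A gene was tested when its FPKM was at least 1 in at least 4 libraries, which held for 15164 genes and for 41 of the 43. Psma8, an alpha subunit of the testis, did not reach this level and lay at 0.161 to 0.472 FPKM in ND-RHL, 0.222 to 0.332 FPKM in AE-PF and 0.123 to 0.241 FPKM in saline libraries, which was 5 to 19 fragments. Psmb11, the beta subunit of the thymus cortex, was listed at 0 in 3 of 4 ND-RHL libraries, 1 of 4 AE-PF libraries and all 4 saline libraries, and its highest level was 0.0480 FPKM in ND-RHL library 4. Lung libraries thus gave next to no reads for these genes, while every 26S subunit was read by 361 to 4962 fragments in each library.

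Libraries held 16152379 to 21667129 fragments counted to genes. Of 8 genes that mark lung (Sftpc, Sftpb, Ager, Hopx, Scgb1a1, Foxj1, Cldn5 and Cdh5), none was at 0 in any library. Their summed level was 18703 to 38676 FPKM in ND-RHL, 6294 to 10864 FPKM in AE-PF and 39133 to 54428 FPKM in saline libraries. In the limma test described below, 2 of the 8 were lower in ND-RHL than in saline lungs and 6 were not called. Over all genes tested, 8.65% were lower there. Other marker lists, of which the alveolar type 2 list shares Sftpc and Sftpb, moved with the groups as well. Summed levels of 10 macrophage markers were 219 to 456 FPKM in ND-RHL, 912 to 1170 FPKM in AE-PF and 139 to 168 FPKM in saline libraries, and those of 10 alveolar type 2 markers were 10298 to 18356, 1661 to 5383 and 13850 to 17651 FPKM in the same order. Summed levels of 10 cell cycle genes were 55.0 to 78.2, 72.1 to 96.4 and 39.4 to 40.7 FPKM. ND-RHL library 4 and AE-PF library 2 stood apart through squamous epithelium markers, which summed to 5517 and 1634 FPKM there and to at most 12.0 FPKM in any other library, and through skeletal muscle markers (1577 and 610 FPKM there, at most 121 FPKM elsewhere). The part of these markers in the results was not tested.

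Subunits of one complex differed in level by several fold. Over 31 subunits of the 26S proteasome, the mean FPKM per gene ranged in ND-RHL libraries between 11.7 for Psmd11 and 73.3 for Psma6, with a median of 28.5. In saline libraries Psma6 was highest as well, at 63.9 ± 1.86 FPKM (SD, n = 4), and Psmb7 was lowest, at 11.4 ± 0.703 FPKM. The summed FPKM of the 31 subunits was 972 to 1090 in ND-RHL (mean 1029 ± 48.2, SD, n = 4), 1137 to 1268 in AE-PF (1189 ± 57.8) and 908 to 947 in saline libraries (926 ± 19.1). The 3 groups did not overlap in this sum, with ND-RHL libraries lying between the others.

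**Figure D1:**
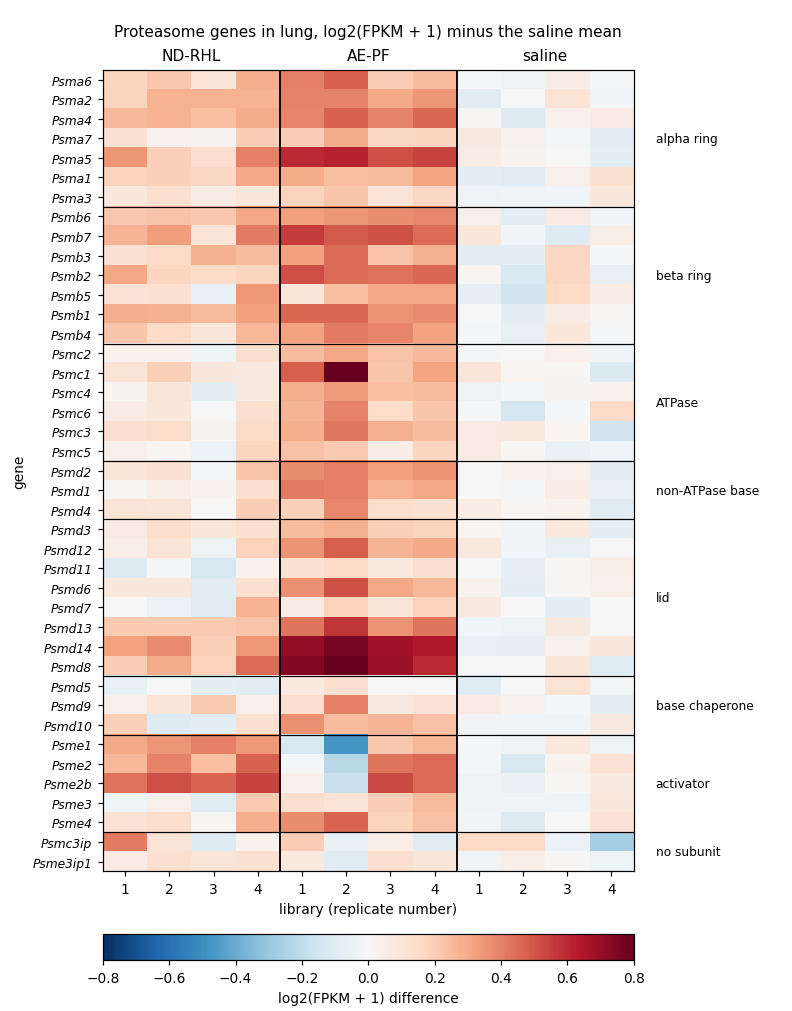
Each row is a proteasome gene that was tested, grouped by its place in the complex, and each column is a library of the ND-RHL, AE-PF or saline group. The colour is the log2(FPKM + 1) level minus the mean of the 4 saline libraries, with the darkest shade at or past the end of the scale. Most rows of the 20S core and the 19S particle are darkest in the AE-PF columns, while Psme1, Psme2 and Psme2b are lower in AE-PF libraries 1 and 2 than in AE-PF libraries 3 and 4.

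The first comparison asked what the bleomycin and LPS challenge did to these genes. In AE-PF lungs nearly every subunit of the 26S proteasome was raised by a modest amount: 30 of the 31 were higher than in saline lungs, and none was lower, with a median log2 change of 0.35 (1.28-fold). Over all 41 tested genes of the set, 33 were higher, 0 were lower and 8 did not pass the test, with a median log2 change of 0.28. At an unadjusted p under 0.05, and by limma-voom on fragments recovered from the FPKM, the number lower was 0 as well. Across the 15164 genes tested, 26.4% were higher and 30.2% were lower, and the median log2 change was -0.03. Of all genes called, 46.7% were higher, and 63.0% were with FPKM scaled to equal totals. The test was limma on log2(FPKM + 1), with Benjamini-Hochberg adjustment over all genes tested and a threshold of 0.05, and changes are on that scale. Levels of 27 of the 31 subunits did not overlap between groups, all 4 AE-PF libraries lying above all 4 saline libraries, which held for 25.3% of all genes tested.

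The 14 subunits of the 20S core all rose in AE-PF lungs, with a median log2 change of 0.36. In the alpha ring the changes ran between 0.17 for Psma3 and 0.57 for Psma5. Psma5 had 63.8, 64.7, 60.3 and 61.5 FPKM in AE-PF libraries, against 43.7, 42.6, 41.8 and 39.7 FPKM in saline libraries. Its lowest AE-PF library lay well above its highest saline library, and the log2 change was 0.57 ± 0.063 (SE; adjusted p = 2.76e-05). Psma1, the alpha subunit that moved least between ND-RHL and AE-PF, had 31.8, 31.9, 31.3 and 34.7 FPKM in ND-RHL libraries, 34.4, 33.0, 33.4 and 34.9 FPKM in AE-PF libraries and 26.5, 26.1, 28.6 and 30.3 FPKM in saline libraries. Its AE-PF libraries again all lay above its saline libraries (log2 change 0.28 ± 0.055, SE; adjusted p = 0.00133), while ND-RHL and AE-PF libraries overlapped.

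The beta ring holds the active sites. Psmb6, which cuts after acidic residues, had 36.6, 37.3, 37.8 and 38.2 FPKM in AE-PF libraries, against 29.8, 27.4, 30.3 and 28.5 FPKM in saline libraries. Psmb7, which cuts after basic residues, had 17.2, 16.4, 16.6 and 15.9 FPKM in AE-PF libraries, against 12.1, 11.2, 10.5 and 11.8 FPKM in saline libraries. Both were separate between the groups, with log2 changes of 0.36 ± 0.044 (SE; adjusted p = 4.97e-05) and 0.50 ± 0.067 (adjusted p = 9.29e-05). Psmb5, the subunit that cuts after hydrophobic residues and the main target of proteasome inhibitors, had 26.1, 28.9, 30.3 and 30.4 FPKM in AE-PF libraries, against 23.2, 21.7, 27.3 and 25.4 FPKM in saline libraries. Here the groups overlapped, and the log2 change of 0.24 ± 0.093 (SE; adjusted p = 0.0446) passed the threshold narrowly: it did so in 14 of 24 alternative fits, in which the largest adjusted p was 0.127. The other beta subunits (Psmb1, Psmb2, Psmb3 and Psmb4) rose by 0.32 to 0.46 on the log2 scale.

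In the base of the 19S particle, all 6 ATPases and all 3 other base subunits rose. Psmc1 changed most among the ATPases and varied most, with 79.6, 102, 66.5 and 71.0 FPKM in AE-PF libraries and 60.8, 57.4, 57.2 and 52.4 FPKM in saline libraries. The groups did not overlap, although AE-PF library 2 stood high, and the log2 change was 0.46 ± 0.110 (SE; adjusted p = 0.00405). Psmc4, another ATPase, had 39.2, 40.5, 37.8 and 38.2 FPKM in AE-PF libraries, against 30.9, 31.6, 32.3 and 32.5 FPKM in saline libraries, with no overlap (log2 change 0.28 ± 0.047, SE; adjusted p = 0.00039). The scaffold subunits Psmd1 and Psmd2, on which substrates and shuttle factors dock, rose by 0.35 and 0.37 on the log2 scale, and the ubiquitin receptor Psmd4 rose by 0.21.

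The largest changes of the set were in the lid, where 7 of 8 subunits rose. Psmd8, whose yeast counterpart is added late in lid assembly, had 44.6, 51.8, 43.1 and 40.3 FPKM in AE-PF libraries, against 26.4, 26.3, 28.1 and 24.6 FPKM in saline libraries. Psmd14, the metalloprotease (Rpn11) that removes ubiquitin chains as the substrate is drawn in, had 26.9, 27.8, 26.1 and 25.6 FPKM in AE-PF libraries, against 15.4, 15.3, 16.4 and 17.2 FPKM in saline libraries. In both genes every AE-PF library was above every saline library by a wide margin. The log2 change was 0.75 ± 0.082 (SE; adjusted p = 2.62e-05) for Psmd8 and 0.70 ± 0.055 (adjusted p = 3.79e-06) for Psmd14, or 1.68-fold and 1.62-fold. Psmd7, the partner of Psmd14 in the lid, was the subunit that did not pass: it had 47.0, 51.3, 48.3 and 51.3 FPKM in AE-PF libraries and 47.3, 45.2, 42.8 and 44.9 FPKM in saline libraries, with a log2 change of 0.13 (95% interval -0.03 to 0.30; adjusted p = 0.154). Calls of Psmd11 (log2 change 0.12, adjusted p = 0.0453) and of the ATPase Psmc5 (0.17, adjusted p = 0.0281) were the weakest of the particle, past the threshold in 11 and 16 of 24 alternative fits.

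**Figure D2:**
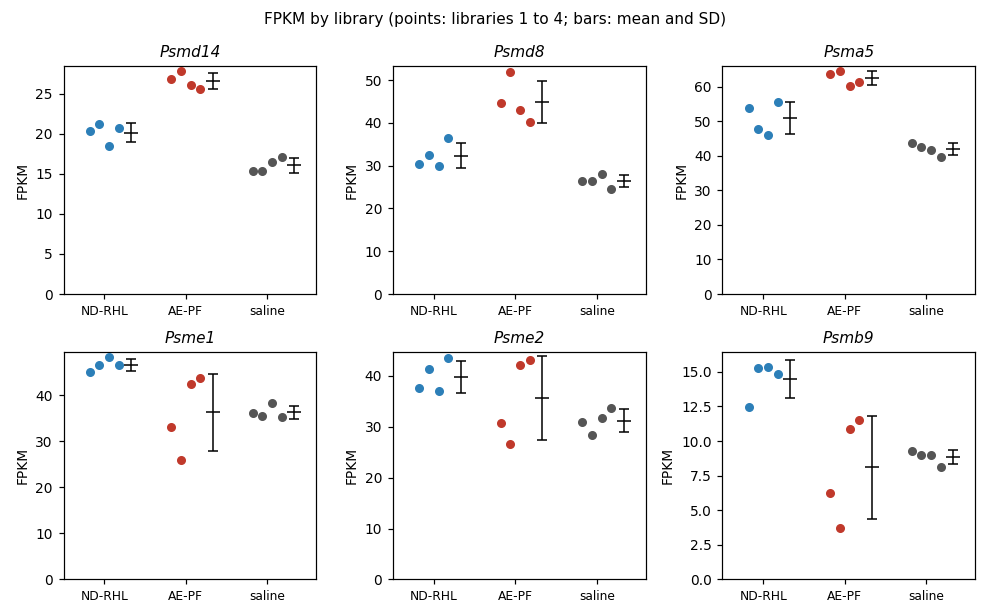
FPKM in each of 4 libraries per group, with the group mean and SD beside the points, for Psmd14, Psmd8, Psma5, Psme1, Psme2 and Psmb9. Groups run ND-RHL, AE-PF, saline along the horizontal axis. Psmd8 and Psmd14 show AE-PF libraries above all others with ND-RHL libraries between, and Psme1 shows AE-PF libraries spread between 26 and 43.8 FPKM.

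Outside the 26S complex, 3 of the 10 tested genes rose, a share near the 26.4% of all genes tested. Of the 3 base chaperones, which hold ATPases during assembly and leave the finished particle, Psmd10 rose: it had 18, 16.5, 16.8 and 16.3 FPKM in AE-PF libraries, against 13.4, 13.5, 13.5 and 14.5 FPKM in saline libraries (log2 change 0.28, adjusted p = 0.00448). Psmd5 and Psmd9 had log2 changes of 0.05 and 0.18 and did not pass (adjusted p = 0.449 and 0.0679). Exons of Psmd9 overlap 1849 bases of Gm26745 on the other strand, so its level is less certain, and no source used here states whether reads were counted by strand. The 2 genes taken in by spelling encode no subunit. Psmc3ip, a recombination factor, had 2.20, 1.67, 1.89 and 1.61 FPKM in AE-PF and 2.11, 2.11, 1.69 and 1.31 FPKM in saline libraries. Psme3ip1, which binds the activator Psme3, had 10.8, 9.46, 11.2 and 11.0 FPKM in AE-PF and 9.96, 10.6, 10.2 and 9.86 FPKM in saline libraries. Both groups overlapped for both genes, with log2 changes of 0.03 and 0.05 (adjusted p = 0.88 and 0.403).

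The activators did not move as one group. Psme4, a large activator that acts in the nucleus, had 16.5, 17.6, 14.3 and 14.9 FPKM in AE-PF libraries, against 12.3, 11.6, 12.5 and 13.6 FPKM in saline libraries, without overlap (log2 change 0.31 ± 0.079, SE; adjusted p = 0.00546). Psme3, the nuclear ring-shaped activator, had 31.8, 31.4, 33.5 and 34.8 FPKM in AE-PF libraries, against 28.4, 28.6, 28.5 and 30.9 FPKM in saline libraries, also without overlap. Its log2 change of 0.17 (adjusted p = 0.0436) was past the threshold in 14 of 24 alternative fits. Psme1 and Psme2 form the activator that interferon induces, and in AE-PF lungs their 4 libraries split into a low and a high pair. Psme1 had 33.1, 26, 42.5 and 43.8 FPKM in AE-PF libraries, against 36.1, 35.6, 38.4 and 35.3 FPKM in saline libraries, so that AE-PF libraries 1 and 2 lay below every saline library and libraries 3 and 4 lay above (log2 change -0.03 ± 0.131, SE; adjusted p = 0.863). Psme2 split into the same pairs, although only AE-PF library 2 lay below every saline library. Psme2 had 30.8, 26.5, 42.1 and 43.0 FPKM in AE-PF libraries and 30.8, 28.4, 31.7 and 33.8 FPKM in saline libraries (log2 change 0.16, adjusted p = 0.336). Psme2b, an intronless copy of Psme2 whose reads may not be told apart from those of Psme2, had 25.5, 21.9, 36.3 and 34.4 FPKM in AE-PF libraries and 24.3, 24, 25 and 26.2 FPKM in saline libraries (log2 change 0.21, adjusted p = 0.19). Without AE-PF libraries 1 and 2, an alternative chosen after seeing the data, the log2 changes were 0.24 for Psme1, 0.44 for Psme2 and 0.49 for Psme2b, with adjusted p = 0.00434, 0.00216 and 0.000129. The libraries left out were the low pair itself, so these p-values do not support a rise. Those AE-PF libraries also had the lowest summed alveolar type 2 markers, 2931 and 1661 FPKM, against 5383 and 5038 FPKM in AE-PF libraries 3 and 4.

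The second comparison asked what the ND-RHL liposomes did in challenged lungs. In ND-RHL lungs 21 of the 31 subunits of the 26S proteasome fell relative to AE-PF lungs, and none was higher, with a median log2 change of -0.18 (0.885-fold). Over the 41 tested genes, 22 were lower, 1 (Psme1) was higher and 18 did not pass, with a median log2 change of -0.14. Of all 15164 genes tested, 17.4% were lower and 24.3% were higher, and the median log2 change was 0.06. Of all genes called, 58.2% were higher, against 37.8% with FPKM scaled to equal totals and 46.4% after quantile normalisation. The AE-PF libraries are those of the first comparison, so these values share their samples and the directions are not independent of each other. Without AE-PF libraries 1 and 2, 10 genes of the set were lower and 0 were higher, without ND-RHL library 3 alone 14 were lower, and with FPKM scaled to equal totals 34 were lower. At an unadjusted p under 0.05, and by limma-voom, 0 of the 31 subunits were higher. All 4 ND-RHL libraries lay below all 4 AE-PF libraries for 22 of the 31 subunits, against 15.6% of all genes tested.

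Of the 19S particle, 14 of 17 subunits were lower (median log2 change -0.23), and of the 20S core 7 of 14 (median -0.12). Whether the core and the particle differed in this share was not tested. In the lid, Psmd8 had 30.5, 32.5, 30.02 and 36.4 FPKM in ND-RHL libraries, against 44.6, 51.8, 43.1 and 40.3 FPKM in AE-PF libraries. Psmd14 had 20.3, 21.2, 18.4 and 20.7 FPKM in ND-RHL libraries, against 26.9, 27.8, 26.1 and 25.6 FPKM in AE-PF libraries. The libraries of the 2 groups did not overlap in either gene. Psmd8 fell by 0.46 on the log2 scale (SE 0.082; adjusted p = 0.00141) and Psmd14 fell by 0.38 (SE 0.055; adjusted p = 0.000381). Among the other lid subunits, Psmd6, Psmd12, Psmd13, Psmd11 and Psmd3 fell by 0.12 to 0.31, and Psmd7 did not pass (log2 change -0.10, adjusted p = 0.325). The call of Psmd3 (adjusted p = 0.046) was past the threshold in 8 of 24 alternative fits.

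In the base, 5 of 6 ATPases and the scaffolds Psmd1 and Psmd2 were lower in ND-RHL lungs. Of these ATPases, Psmc6 (adjusted p = 0.0436) was past the threshold in 10 of 24 alternative fits. Psmc4 had 32.4, 34.1, 30.1 and 33.5 FPKM in ND-RHL libraries, against 39.2, 40.5, 37.8 and 38.2 FPKM in AE-PF libraries. The groups were apart, and the log2 change was -0.25 ± 0.047 (SE; adjusted p = 0.00165). Psmc1 had 61.6, 65.2, 60.3 and 59.8 FPKM in ND-RHL libraries, all below its AE-PF libraries, with a log2 change of -0.35 ± 0.110 (adjusted p = 0.026), which was past the threshold in 15 of 24 alternative fits. The base chaperone Psmd10 had 15.8, 12.7, 12.9 and 15.1 FPKM in ND-RHL libraries, all below its AE-PF libraries (log2 change -0.25, adjusted p = 0.0135).

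Within the 20S core, Psma5 showed the clearest difference, with 53.8, 47.9, 46.1 and 55.7 FPKM in ND-RHL libraries, against 63.8, 64.7, 60.3 and 61.5 FPKM in AE-PF libraries. No library of one group reached the other, and Psma5 fell by 0.30 on the log2 scale (SE 0.063; adjusted p = 0.0036). The active subunits changed less. Psmb7 had 13.9, 14.6, 12.3 and 15.4 FPKM in ND-RHL libraries, all below its AE-PF libraries (log2 change -0.22, adjusted p = 0.0206). Psmb6 had 33.8, 34.1, 33.8 and 36.2 FPKM in ND-RHL libraries, also all below, with a log2 change of -0.12 (adjusted p = 0.0496) that was past the threshold in 6 of 24 alternative fits. The call of Psmb1, another beta subunit (log2 change -0.12, adjusted p = 0.039), was past it in 12 of 24. Psmb5 had 26.5, 26.5, 23.3 and 31.2 FPKM in ND-RHL libraries, a range that covered its whole AE-PF range, and did not pass (log2 change -0.11, adjusted p = 0.376).

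Psme1 was the gene of the set that was higher in ND-RHL lungs, with 45, 46.6, 48.4 and 46.6 FPKM in ND-RHL libraries, against 33.1, 26, 42.5 and 43.8 FPKM in AE-PF libraries. Every ND-RHL library was above every AE-PF library, the nearest being AE-PF libraries 3 and 4, and the log2 change was 0.38 ± 0.131 (SE; adjusted p = 0.0372). Without AE-PF libraries 1 and 2 the log2 change was 0.11 (adjusted p = 0.144), and the call was lost in 6 of 12 fits that left out 1 library. Psme2 had 37.5, 41.3, 37.0 and 43.5 FPKM and Psme2b had 34.0, 36.0, 34.7 and 36.6 FPKM in ND-RHL libraries. Both overlapped with their AE-PF libraries and did not pass (log2 changes 0.18 and 0.28, adjusted p = 0.307 and 0.104). Psme3 had 28.6, 29.9, 27.1 and 33.8 FPKM and Psme4 had 13.6, 13.9, 12.6 and 15.5 FPKM in ND-RHL libraries. These activators overlapped with their AE-PF libraries, with log2 changes of -0.14 and -0.17 (adjusted p = 0.113 and 0.0974). Psmc3ip had 2.72, 2.01, 1.59 and 1.83 FPKM and Psme3ip1 had 10.7, 11.2, 11.0 and 11.1 FPKM in ND-RHL libraries, and neither passed (log2 changes 0.09 and 0.05).

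**Figure D3:**
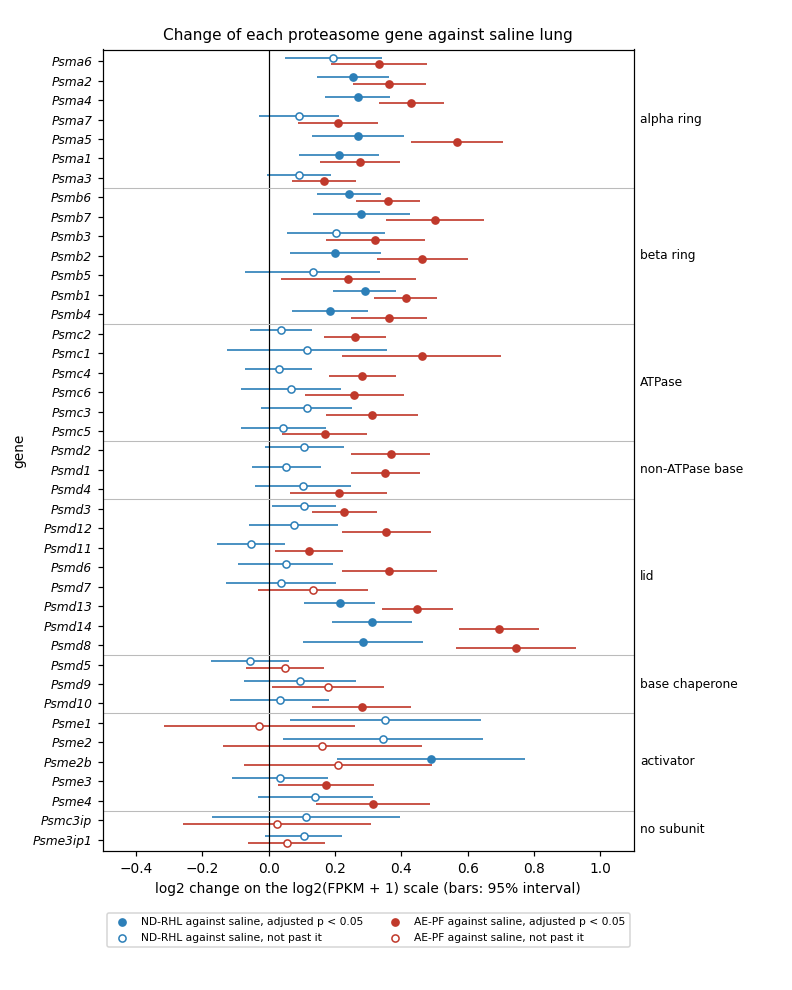
Log2 change on the log2(FPKM + 1) scale with its 95% interval for each tested gene, by place in the complex, for ND-RHL against saline (blue) and AE-PF against saline (red), with filled points for an adjusted p under 0.05. Psmd8, Psmd14 and Psma5 lie farthest to the right for AE-PF against saline, at 0.75, 0.70 and 0.57, and no filled point of the ATPases is blue.

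The third comparison set treated lungs against lungs without the challenge. In ND-RHL lungs 9 of 14 subunits of the 20S core were higher than in saline lungs (median log2 change 0.21), and 3 of 17 subunits of the 19S particle were (Psmd8, Psmd13 and Psmd14; median 0.08). None was lower, at an unadjusted p under 0.05 and by limma-voom as well. Over the 41 tested genes, 13 were higher, 0 were lower and 28 did not pass, with a median log2 change of 0.11. Of all genes tested, 13.3% were higher and 8.65% were lower, with a median of 0.03. The 3 of 17 for the particle was near that share of higher genes and does not set the particle apart. Of all genes called, 60.5% were higher, against 43.5% after quantile normalisation. These 13 genes were 4 alpha subunits, 5 beta subunits, 3 lid subunits and Psme2b. Over all alternative fits, the number of core subunits higher ranged between 6 and 11 and that of the particle between 2 and 3. Leaving out saline library 1 or saline library 2 gave 8 genes higher over the whole set. With the replicate number as a block, Psmb2, Psmb4 and Psmd8 were not called (adjusted p = 0.0542, 0.0628 and 0.0577). These 3 genes were past the threshold in 7, 14 and 16 of 24 alternative fits. All 4 ND-RHL libraries lay above all 4 saline libraries for 12 of the 31 subunits, against 18.1% of all genes tested. Whether core and particle differed in the share called was not tested.

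Core and particle can also be set against each other within a library. The summed FPKM of the core divided by that of the particle was 0.881, 0.851, 0.883 and 0.866 in ND-RHL libraries, 0.824, 0.778, 0.847 and 0.841 in AE-PF libraries and 0.783, 0.776, 0.838 and 0.825 in saline libraries. Every ND-RHL library had a ratio above every AE-PF and saline library, and AE-PF and saline libraries overlapped. Relative to the saline mean, the median log2 level of the core subunits was 0.20, 0.19, 0.14 and 0.29 in ND-RHL libraries 1 to 4, and that of the particle subunits was 0.06, 0.10, 0.00 and 0.16. In AE-PF libraries the core lay at 0.36, 0.43, 0.33 and 0.34 and the particle at 0.29, 0.41, 0.24 and 0.26. The core was thus above the particle in every ND-RHL and AE-PF library, and within the ND-RHL group both were highest in library 4, which also held the squamous and muscle markers. Psmb1 had the largest change of the core, 0.29 on the log2 scale (adjusted p = 0.00151), with 23.5, 23.3, 22.8 and 24.1 FPKM in ND-RHL libraries, against 19, 18, 19.9 and 19.1 FPKM in saline libraries. Its groups were fully apart. The ATPases had log2 changes of 0.03 to 0.11, and 0 of 6 passed in the limma test (0 at an unadjusted p under 0.05 and 0 by limma-voom), where 13.3% of all genes tested were higher. Whether the ATPases differed from the core in this count was not tested. Psmc4 changed by 0.03 (95% interval -0.07 to 0.13; adjusted p = 0.689).

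**Figure D4:**
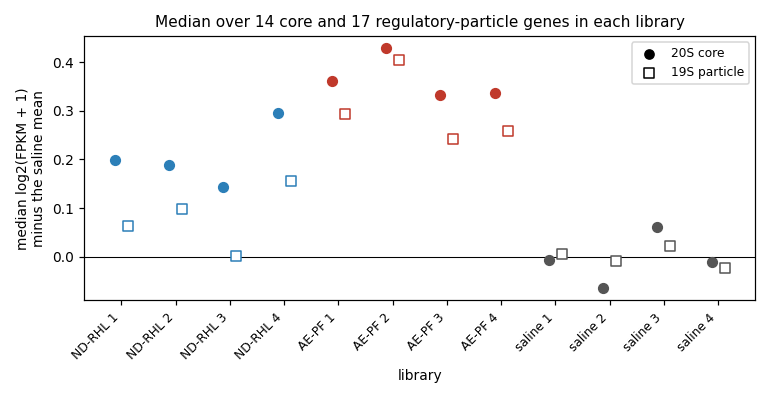
Median log2 level of the 20S core subunits and of the 19S particle subunits in each library, relative to the saline mean. ND-RHL libraries lie at 0.14 to 0.29 for the core and at 0.00 to 0.16 for the particle, and AE-PF libraries at 0.33 to 0.43 for the core and 0.24 to 0.41 for the particle.

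Of the active subunits, Psmb6 and Psmb7 were higher in ND-RHL than in saline lungs (log2 changes 0.24 and 0.28, adjusted p = 0.00382 and 0.0142), and Psmb5 was not called (0.13, adjusted p = 0.331). Psmd14 was higher by 0.31 (adjusted p = 0.00322), Psma5 by 0.27 (adjusted p = 0.0129) and Psmd8 by 0.28 (adjusted p = 0.0309), with all 4 ND-RHL libraries above all 4 saline libraries in each. The activators Psme1, Psme2 and Psme2b had the largest differences of the set, 0.35, 0.34 and 0.49 on the log2 scale, and in each gene every ND-RHL library was above every saline library. Psme2b passed (adjusted p = 0.0219; lost in 3 of 12 fits that left out 1 library, with adjusted p up to 0.0589), while Psme1 and Psme2 did not (adjusted p = 0.078 and 0.0954). Leaving AE-PF libraries 1 and 2 out of the shared fit gave the same differences with adjusted p = 0.000582 for Psme1, 0.00552 for Psme2 and 0.000185 for Psme2b. Their spread enters the estimate of error for all 3 groups. Psmd10 had a log2 change of 0.03, with ND-RHL and saline libraries overlapping.

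Immunoproteasome subunits were set against the standard subunits whose places they take, as ratios of FPKM within a library. The ratio of Psmb8 to Psmb5 was 0.266, 0.308, 0.347 and 0.294 in ND-RHL libraries, 0.175, 0.112, 0.266 and 0.258 in AE-PF libraries and 0.198, 0.187, 0.181 and 0.175 in saline libraries. The ratio of Psmb9 to Psmb6 was 0.370, 0.449, 0.454 and 0.410 in ND-RHL libraries, 0.171, 0.1004, 0.288 and 0.301 in AE-PF libraries and 0.312, 0.327, 0.297 and 0.286 in saline libraries. The ratio of Psmb10 to Psmb7 was 1.94, 2.11, 2.86 and 1.90 in ND-RHL libraries, 1.33, 0.976, 1.67 and 1.78 in AE-PF libraries and 2.14, 2.42, 2.74 and 2.02 in saline libraries. For Psmb8 and Psmb9 every ND-RHL library had a ratio above every saline library, and for Psmb10 every AE-PF library lay below all others. The lowest ND-RHL ratio of Psmb8 to Psmb5 equalled the highest AE-PF ratio to 3 digits. In AE-PF lungs the ratios for Psmb8 and Psmb9 had the split already seen for Psme1, low in libraries 1 and 2. By exact 2-sided permutation tests, the differences in mean log2 ratio between ND-RHL and AE-PF lungs were 0.66 for Psmb8 to Psmb5 (p = 0.0571), 1.09 for Psmb9 to Psmb6 (p = 0.0286) and 0.63 for Psmb10 to Psmb7 (p = 0.0286). Between ND-RHL and saline lungs they were 0.71 (p = 0.0286), 0.46 (p = 0.0286) and -0.09 (p = 0.6), and between AE-PF and saline lungs 0.05 (p = 1), -0.64 (p = 0.143) and -0.72 (p = 0.0286), in the same exact tests. The smallest p that 4 libraries against 4 allow is 0.0286. Adjusted over the 9 tests it became 0.0514, so in this family of exact tests no ratio passed the threshold. Without AE-PF libraries 1 and 2, the differences between ND-RHL and AE-PF lungs were 0.21 for Psmb8 to Psmb5 and 0.51 for Psmb9 to Psmb6, and those between AE-PF and saline lungs 0.50 and -0.05.

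**Figure D5:**
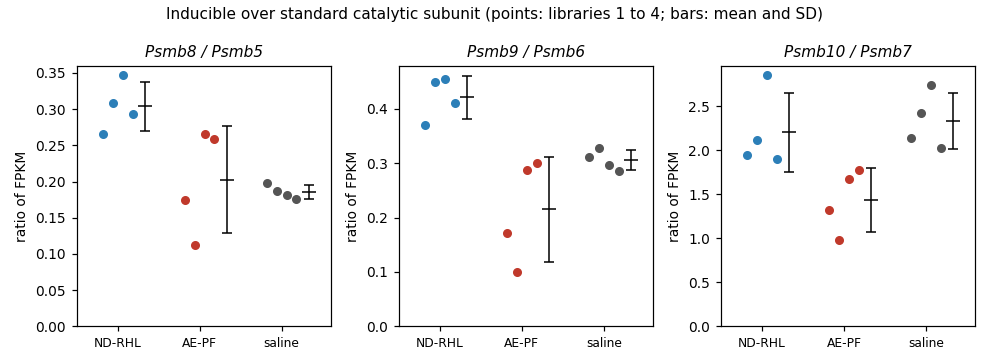
FPKM ratio of an immunoproteasome subunit to the standard subunit it replaces, in each library of the ND-RHL, AE-PF and saline groups, with the group mean and SD beside the points. ND-RHL libraries have a Psmb9 to Psmb6 ratio of 0.370 to 0.454, above all others, and AE-PF libraries 1 and 2 are lower than AE-PF libraries 3 and 4 in every panel.

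In AE-PF lungs Psmb8, Psmb9 and Psmb10 themselves had log2 changes of 0.26, -0.22 and -0.18 relative to saline lungs, and 0 of 3 passed in the limma test (0 at an unadjusted p under 0.05 and 0 by limma-voom), against 26.4% higher and 30.2% lower over all genes tested. These values rested on the low pair of AE-PF libraries. Without AE-PF libraries 1 and 2, Psmb8 had a log2 change of 0.70 (adjusted p = 0.000326) and Psmb9, whose sign turned, one of 0.31 (adjusted p = 0.0148), and Psmb10 was not called (0.09, adjusted p = 0.508). This alternative was chosen after seeing the data and leaves out the low pair itself, so its p-values do not support a rise. Psmb8 was also called higher with array weights (0.60, adjusted p = 0.00159) and without the 2 libraries that stood apart (0.47, adjusted p = 0.0252). Relative to AE-PF lungs, Psmb9 was higher in ND-RHL lungs (0.87, adjusted p = 0.0165). Psmb8 and Psmb10 were not called there (0.46 and 0.38, adjusted p = 0.0951 and 0.0664). The count was thus 1 of 3, against 24.3% higher over all genes tested, which does not set the list apart. At an unadjusted p under 0.05, 3 of 3 were higher. The difference of Psmb9 was 0.34 without AE-PF libraries 1 and 2 (adjusted p = 0.0172), 0.46 with array weights (adjusted p = 0.0491) and 0.58 without the 2 libraries that stood apart (adjusted p = 0.0289), and its call was lost with 2 groups in the fit (adjusted p = 0.0509). Psmb8 was higher in ND-RHL than in saline lungs (0.72, adjusted p = 0.0297), with 7.03, 8.17, 8.08 and 9.16 FPKM in ND-RHL libraries, against 4.59, 4.05, 4.94 and 4.45 FPKM in saline libraries. This call was lost when no filter on low levels was used (adjusted p = 0.0675). Psmb9 and Psmb10 were not called against saline (0.65 and 0.20, adjusted p = 0.0839 and 0.371). That made 1 of 3 higher, against 13.3% of all genes tested, and 2 of 3 were higher at an unadjusted p under 0.05.

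Factors that work with the proteasome were examined next, from lists of its assembly, control and substrate supply. Of 14 assembly and associated factors tested, 5 rose and 1 fell in AE-PF lungs, with a median log2 change of 0.10, against 26.4% higher and 30.2% lower over all genes tested. Usp14 and Txnl1, a deubiquitinase and a thioredoxin bound to the 19S particle, rose by 0.35 and 0.30 (adjusted p = 0.000165 and 0.00208). Uchl5, another bound deubiquitinase, the small lid subunit Sem1 and Pomp, the chaperone of core assembly, rose by 0.33, 0.26 and 0.24 (adjusted p = 0.00735, 0.00578 and 0.0216). Akirin2, which brings proteasomes into the nucleus in human cells, fell by 0.26 (adjusted p = 0.00791). In ND-RHL lungs Usp14, Txnl1 and Uchl5 were lower than in AE-PF lungs (log2 changes -0.27, -0.25 and -0.28), a count of 3 of 14 that was near the 17.4% of all genes tested. Pomp was not called there (-0.03, adjusted p = 0.809).

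Nfe2l1 encodes Nrf1, the transcription factor that raises proteasome genes when proteasomes are inhibited, after it has been drawn out of the endoplasmic reticulum, stripped of sugars and cut. Of the 8 genes of this axis, 1 rose and 2 fell in AE-PF lungs (median log2 change -0.15), against 26.4% higher and 30.2% lower over all genes tested. With 8 genes, these counts do not set the list apart. Nfe2l1 itself had a log2 change of -0.07 (95% interval -0.23 to 0.08; adjusted p = 0.401). Vcp, the ATPase that extracts proteins from membranes, rose by 0.44 (adjusted p = 2.49e-05). The ubiquitin ligase Syvn1 and the sugar-removing enzyme Ngly1 fell by 0.47 and 0.22 (adjusted p = 0.000146 and 0.00621). Ddi2, the protease that cuts Nrf1, had a log2 change of -0.03 in AE-PF against saline lungs and was lower in ND-RHL lungs relative to AE-PF lungs (-0.27, adjusted p = 0.00185). In ND-RHL against AE-PF lungs, 2 genes of the axis were higher and 2 were lower, against 24.3% and 17.4% of all genes tested. Over the 8 genes the log2 changes there ran between -0.27 for Ddi2 and 0.37 for Nfe2l3. Messenger levels do not give the processing of Nrf1 protein.

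Of 11 ubiquitin supply and shuttle genes, 3 rose and 3 fell in AE-PF lungs, with a median log2 change of -0.05. These counts were close to the 26.4% higher and 30.2% lower over all genes tested and do not set the list apart. Rps27a, a fusion of ubiquitin with a ribosomal protein, the shuttle factor Rad23b and the activating enzyme Uba1 rose by 0.50, 0.39 and 0.28. The shuttle factors Ubqln1, Ubqln2 and Ubqln4 fell by 0.50, 0.42 and 0.26. Adjusted p of these 6 genes lay between 3.24e-05 and 0.0176. In ND-RHL lungs Ubqln1, Ubqln2 and Ubqln4 were lower than in saline lungs too (log2 changes -0.37, -0.30 and -0.28).

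Complexes with a similar build were measured alongside. The COP9 signalosome and the translation factor eIF3 share the subunit architecture of the lid, and CCT is a chaperonin of stacked rings. Over all genes tested, 26.4% were higher and 30.2% lower in AE-PF against saline lungs, 17.4% were lower in ND-RHL against AE-PF lungs and 8.65% were lower in ND-RHL against saline lungs. In AE-PF lungs 5 of 10 COP9 genes rose and none fell (median log2 change 0.17), led by Cops5 (0.46, adjusted p = 3.15e-05), its deneddylating subunit and the counterpart of Psmd14, and Cops6 (0.43, adjusted p = 0.00016). Of 13 eIF3 genes tested, 11 rose and none fell (median 0.26). Of 8 CCT genes, 1 rose (Cct2, 0.35) and 1 fell (Cct7, -0.32), with a median of -0.04. In ND-RHL lungs 5 of 8 CCT genes were lower than in AE-PF lungs (median -0.28) and 5 of 8 were lower than in saline lungs (median -0.23). Relative to AE-PF lungs, 4 of 10 COP9 genes and 4 of 13 eIF3 genes fell in treated lungs (medians -0.04 and -0.09). None of either list rose in the limma test, though 1 COP9 gene did at an unadjusted p under 0.05. Relative to saline lungs, 2 COP9 and 5 eIF3 genes were higher in treated lungs (medians 0.14 and 0.16), against 13.3% of all genes tested. None was lower there, at an unadjusted p under 0.05 and by limma-voom as well. Against a share of 8.65%, 0 of 10 and 0 of 13 do not set these complexes apart.

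Promoters were read from RefSeq on GRCm38.p6, 250 bases before to 50 after the start, for 36 of the 43 genes. Sequences are given for the pair of lid genes that changed most, for an active subunit with an antioxidant-type element, and for the activator gene called higher in ND-RHL than in AE-PF lungs. Capitals mark matches on either strand to CCAAT, to GGGCGG, to CTTCCG or to TGACNNNGC, the core of the element that Nrf1 and its relatives bind. Psmd14 is read at chr2:61711444-61711743 on the plus strand, Psmd8 at chr7:29180624-29180923 on the minus strand, Psmb6 at chr11:70525107-70525406 on the plus strand and Psme1 at chr14:55578244-55578543 on the plus strand.
Psmd14: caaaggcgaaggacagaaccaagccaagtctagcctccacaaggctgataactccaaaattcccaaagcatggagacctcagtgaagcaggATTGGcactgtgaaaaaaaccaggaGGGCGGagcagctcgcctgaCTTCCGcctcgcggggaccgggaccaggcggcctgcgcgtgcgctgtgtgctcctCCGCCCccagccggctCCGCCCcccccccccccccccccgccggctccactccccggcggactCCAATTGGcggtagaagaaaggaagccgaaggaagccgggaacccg
Psmd8: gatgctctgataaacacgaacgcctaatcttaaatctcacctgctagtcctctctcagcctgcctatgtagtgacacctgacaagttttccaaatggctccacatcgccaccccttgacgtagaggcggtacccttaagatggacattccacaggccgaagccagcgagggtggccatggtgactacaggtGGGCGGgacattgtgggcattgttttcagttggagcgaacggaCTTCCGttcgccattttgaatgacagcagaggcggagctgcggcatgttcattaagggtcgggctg
Psmb6: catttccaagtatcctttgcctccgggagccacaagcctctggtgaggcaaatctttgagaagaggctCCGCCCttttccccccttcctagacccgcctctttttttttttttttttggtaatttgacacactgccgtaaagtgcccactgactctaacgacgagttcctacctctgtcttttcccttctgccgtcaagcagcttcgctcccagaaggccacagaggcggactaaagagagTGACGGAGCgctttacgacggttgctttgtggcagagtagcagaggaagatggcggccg
Psme1: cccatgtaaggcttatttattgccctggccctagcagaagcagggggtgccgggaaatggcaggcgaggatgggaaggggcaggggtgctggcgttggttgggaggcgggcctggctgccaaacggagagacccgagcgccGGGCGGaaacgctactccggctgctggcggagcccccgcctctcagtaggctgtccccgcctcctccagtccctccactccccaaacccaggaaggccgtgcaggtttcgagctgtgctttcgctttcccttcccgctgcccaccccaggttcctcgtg

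TGACNNNGC was found in promoters of 6 of the 36 genes (16.7%), against 13.99% of all 27025 genes with a promoter and 16.9% of the 10777 tested genes with one. A gene was counted when any of its listed promoters matched. The 6 genes were Psmb5, Psmb6, Psmc6, Psmd9, Psmd12 and Psme4. CCAAT was found in 15 (41.7%, against 42.0% of tested genes) and GGGCGG in 22 (61.1%, against 66.2%). These shares were close to those of all tested genes. CTTCCG, the core of sites for ETS factors, was added after the sequences had been seen and was found in 22 (61.1%), against 32.8% of tested genes. Matches of CTTCCG can share letters with those of GGGCGG on the other strand. Psmd14 and Psmd8 held CTTCCG, and Psmb6 and Psme1 did not.

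In the genome, the genes were spread over many chromosomes, with the most on chromosome 11. On GRCm38 in GENCODE M21, Psmd14 lies at chr2:61711694-61800376 on the plus strand and Psmd8 at chr7:29174188-29180701 on the minus strand. Psme1 (chr14:55578123-55581529, plus strand) and Psme2 (chr14:55587441-55591113, minus strand) are close neighbours, and Psme2b lies apart (chr11:48945354-48946190, minus strand). Psmb5 (chr14:54614119-54618022, minus strand) and Psmb11 (chr14:54621433-54629556, plus strand) are close neighbours as well. Annotated exons of 13 of the 43 genes overlap those of another gene, among them Psmb7 with 405 bases of Nek6 on the opposite strand, and their levels are less certain for that reason. Overlaps on the same strand were those of Psmb5 with Mir686 (109 bases), Psmd1 with Gm21972 (301 bases) and Psme2b with 9930111J21Rik1 (41 bases). Counting by strand would not separate these.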

How the data were processed

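Groups and replicate numbers came from the sample labels. The authors deposited 1 table of FPKM values for 35599 genes in 12 libraries, 1 column each. Tools listed in the submitters' processing notes, with no role for each, are DESeq2 1.30.1, STAR 2.7.9a, Subread 2.0.1 with featureCounts, Trim Galore 0.6.6 and FastQC, and the builds are GRCm38 and mm10. Strand setting and the counting of reads that match several genes are not given in the sources used here. The table's gene positions do not match GRCm38, so coordinates were taken from GENCODE M21 by gene identifier, which found all 43 genes, and promoters from RefSeq (GRCm38.p6).

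FPKM are not counts, so log2(FPKM + 1) values were fitted with limma (version 3.58.1, under R 4.3.3), using its variance trend, in 1 fit of 12 libraries (9 residual degrees of freedom). The filter (FPKM of 1 or more in 4 or more libraries) left 15164 genes. P-values were 2-sided and Benjamini-Hochberg adjusted over all genes tested, with a threshold of 0.05. This scale understates changes of low genes. Whole fragments could be recovered from the FPKM for 35598 of 35599 genes, summing to 16150914 to 21665003 per library, and limma-voom on them was an alternative. On these fragments, limma-voom called 33 members in AE-PF against saline. For a gene of 1 kb, 3 fragments are an FPKM of 0.138 to 0.186, a floor for counting error only. A limma fit of the same form was tried on simulated fragments with known changes, for AE-PF against saline. The other steps were not tried in this way.

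Replicate numbers were checked for pairing by the correlation of same-numbered libraries' deviations from their group means. It was 0.114 to 0.397 for ND-RHL with saline, over 0.1 in all 4 pairs, and had mixed signs for the other comparisons (-0.181 to 0.065 and -0.387 to 0.339).

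Members and gene lists were chosen with earlier results of these data known. In the ubiquitin supply and shuttle list, 1 gene is not reported here. Values in every library were given for the 3 largest and 2 smallest changes per comparison, the active subunits, Psmd14, the activators, the tissue-restricted subunits and the genes taken in by spelling. Psma6, Psmb1, Psmc1 and Psmd7, and Psmd8 and Psma5 beyond the comparisons that named them, were added after their values were seen. From other lists, the genes with the 2 smallest p past the threshold in AE-PF against saline, Nfe2l1 and Pomp were named, and the remaining ones were added after their values were seen.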

Additional observations from a re-analysis of the deposited data

Results flagged for a closer look

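In groups of 4 libraries, the lowest or highest library was set against the nearest of the others, and the gap as a share of the group's range was held against Dixon's 95% critical value for 4 samples. Of 137 pairs of a gene and a group, 11 were past it, where chance would give about 6.8 (1 in 20). Flagged libraries were ND-RHL library 1 or 4, saline library 4 and AE-PF library 2 or 4.

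In ND-RHL library 1, Psma2 was low at 20.7 FPKM (the others at 22.2), Psmb9 was low at 12.5 FPKM (the others at 14.8 to 15.3) and Psmb2 was high at 37.2 FPKM (the others at 33.4 to 33.8). In ND-RHL library 4, Psmb6 was high at 36.2 FPKM (the others at 33.8 to 34.1) and Psmd13 at 21.8 FPKM (the others at 21.5). ND-RHL library 4 also had the highest summed level of the 26S subunits of its group, 1090 FPKM. In AE-PF library 2, Psmd9 was high at 4.47 FPKM (the others at 3.36 to 3.53). Both of these libraries held squamous epithelium and skeletal muscle markers, whose part in these values was not tested. In saline library 4, Psma3 was high at 21.1 FPKM (the others at 19.1 to 19.4), Psmd10 at 14.5 FPKM (the others at 13.4 to 13.5) and Psme3 at 30.9 FPKM (the others at 28.4 to 28.6). Psmb11, which was not tested, stood at 0.0480 FPKM (4 fragments) in ND-RHL library 4, with the others at 0, and at 0 FPKM in AE-PF library 4, with the others at 0.0116 to 0.0123 (1 fragment each).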

How the results depend on the processing

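Depth was 16152379 to 21667129 fragments per library, and with 4 libraries per group limma's calls near the threshold moved with the setting. In AE-PF against saline, 29 to 37 members were higher and 0 were lower under 12 alternatives (pseudocount, filters, scalings, array weights, 2 groups in the fit, the replicate block, limma-voom and libraries left out). The median log2 change was 0.41 with equal FPKM totals, where the median of all genes moved to 0.08, against 0.28 and -0.03 in the fit reported. Psme1 turned to 0.24 without AE-PF libraries 1 and 2. In ND-RHL against AE-PF, the number higher was 0 (1 in the fit reported) without a filter, with equal FPKM totals, with array weights, with 2 groups in the fit, without ND-RHL library 4 and AE-PF library 2, and without AE-PF libraries 1 and 2. The number lower was 34 with equal FPKM totals and 10 without AE-PF libraries 1 and 2 (22 in the fit reported), and the median was -0.25 with equal FPKM totals (-0.14 in the fit reported). In ND-RHL against saline, 10 to 17 members were higher and 0 were lower. The causes were not tested.

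Leaving out 1 library at a time gave 29 to 34 members higher, 0 to 0 lower and a median of 0.27 to 0.31 in AE-PF against saline. It gave 0 to 2 higher, 14 to 25 lower and a median of -0.18 to -0.12 in ND-RHL against AE-PF, and 8 to 17 higher, 0 to 0 lower and a median of 0.10 to 0.15 in ND-RHL against saline.

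With a pseudocount of 1 in both terms, 6 ratio differences passed the exact permutation test at an adjusted p of 0.0429: Psmb8 to Psmb5 at 0.57 (ND-RHL against AE-PF) and 0.59 (ND-RHL against saline), Psmb9 to Psmb6 at 0.99 and 0.41, and Psmb10 to Psmb7 at -0.68 (AE-PF relative to saline) and 0.60 (ND-RHL relative to AE-PF). Without it, Psmb8 to Psmb5 in ND-RHL against AE-PF had an exact p of 0.0571. The others listed were at the smallest exact p, 0.0286, without it too. The adjustment lets none pass unless enough tests reach that value, so the change of 1 ratio moved all 6. Leaving out 1 library, the log2 differences ranged for Psmb8 to Psmb5 between 0.40 and 0.82 (ND-RHL against AE-PF), 0.64 and 0.77 (ND-RHL against saline) and -0.11 and 0.31 (AE-PF against saline). For Psmb9 to Psmb6 the ranges were 0.77 to 1.3, 0.42 to 0.52 and -0.84 to -0.31, and for Psmb10 to Psmb7 0.46 to 0.75, -0.22 to -0.01 and -0.84 to -0.55.

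With the replicate block, 32 members were higher in AE-PF against saline. In ND-RHL against AE-PF 18 were lower and 1 was higher, and 10 were higher in ND-RHL against saline. In ND-RHL against saline the block changed the calls of Psmb2, Psmb4 and Psmd8 and of no other member. In ND-RHL with saline, where the pairing rests on the data and not on the labels, not every library correlated best with its own number.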
